A study of Mus musculus with 6 samples.

Results

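The 35 genes described here mark the endothelium of the liver, the cells that line its sinusoids and larger vessels. They are a list of named genes in 4 roles: 11 sinusoidal markers and scavenger receptors, 7 receptors of the vascular endothelial growth factor (VEGF) and angiopoietin systems with their partners, 13 general and capillary endothelial markers, and 4 angiocrine factors. All 35 had at least 1 probe set assigned to that gene alone among the 18193 genes with such a probe set on the array, and each gene was read from its brightest one. A gene was kept for the comparison when that probe set exceeded a log2 signal of 4 on 3 or more of the 6 arrays, which 26 of the 35 genes and 8554 genes in all did.

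Whole liver of C57BL/6 mice was sampled 18 hours after a partial hepatectomy, surgery that takes out most of the organ. Both groups carried a floxed Socs3 gene (Socs3 fl/fl). The 3 Cre plus arrays are from mice that also carried the Cre recombinase under the albumin promoter (Alb-Cre+), which is active in hepatocytes, and the 3 Cre minus arrays are from littermates without it (Alb-Cre-). The endothelium is therefore not the cell in which the gene was to be deleted, and SOCS3 is a feedback inhibitor of signalling from cytokine receptors such as that for interleukin-6. Ages are not given in the labels. Arrays of each group are lettered A, B and C, and the labels do not tie an array to a mouse, so that p-values measure only the spread between these samples. The arrays held no liver from before surgery and no Cre without floxed Socs3, so the deletion and the Cre transgene cannot be told apart. Socs3 read lower in every Cre plus array than in any Cre minus array on each of its 3 probe sets, with a log2 difference of -2.01 ± 0.22 (SE, n = 3 per group) on the brightest and a limma adjusted p of 0.0732. Its kept probe sets are of a design that can bind other transcripts, and the remaining probe set missed the signal filter. Correlations across genes were 0.995 between Cre minus arrays and 0.987 to 0.990 between Cre plus arrays.

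Liver sinusoidal endothelial cells are thin, fenestrated cells with no organised basement membrane. They clear waste proteins, immune complexes and other ligands from blood with scavenger and Fc receptors, which other capillaries largely lack. They respond to VEGF and angiopoietins, and after liver injury they send hepatocytes angiocrine signals such as WNT and BMP ligands.

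Endothelial genes mostly had lower values in Cre plus livers, by small amounts, and none passed correction over all genes. Of the 26 genes kept, 21 had a lower mean in Cre plus and 5 a higher one (80.8% lower, against 53.5% of all genes tested), and their median log2 difference was -0.18 against -0.01 over all genes. With a limma adjusted p under 0.05 as the call, 0 of 26 were called, against 0.0234% of all genes tested. With unadjusted limma p-values under 0.05, 7 of 26 (26.9%) were lower, against 8.21% of all genes, and 1 of 26 (3.85%) was higher, against 6.62%. In 9 genes all Cre plus arrays lay below all Cre minus arrays (34.6%, against 11.9% of all genes), in 1 all lay above (3.85%, against 9.21%), and in 16 the groups overlapped. These shares describe the list, which was not drawn up blind to the data, and are no test of it. An exact two-sided permutation test of 3 arrays against 3 gives p = 0.1 for each of these 10 genes, the smallest it can give. In whole-liver RNA, fewer endothelial cells and less RNA per cell cannot be told apart.

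**Figure D1:**
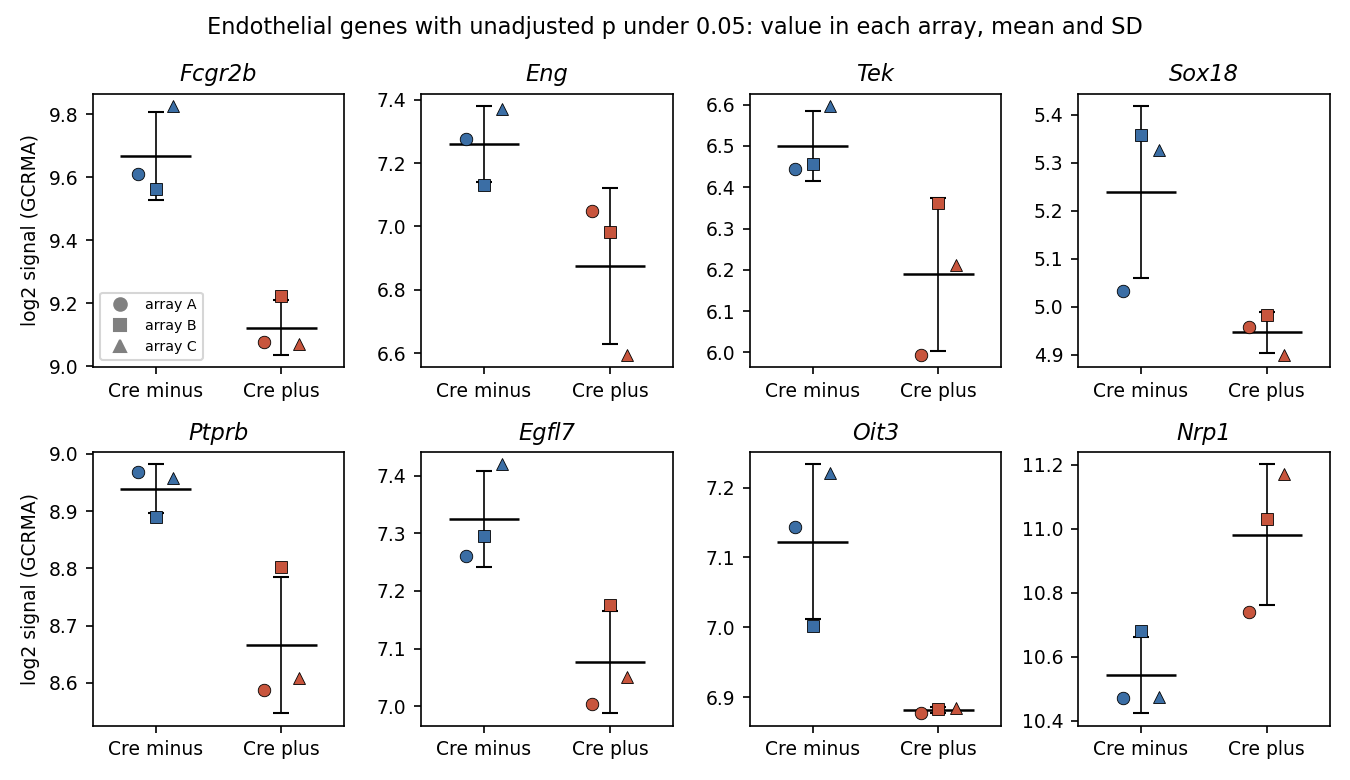
Log2 signal (vertical axis) of the 8 endothelial genes with an unadjusted limma p under 0.05, with one point per array (letter by shape), a line for each group mean and its SD as error bar (n = 3). Cre plus points lie below all Cre minus points in 7 genes and above them in Nrp1.

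All 11 sinusoidal markers and scavenger receptors were kept. Whether each lies above probe background, and which cells gave the signal, was not tested. In Cre plus livers 10 of the 11 had lower means, with a median log2 difference of -0.21. For 2 of the 11, both lower, the unadjusted p was under 0.05 (18.2%, against 8.21% of all genes). Fcgr2b, the inhibitory receptor for immunoglobulin G that sinusoidal endothelium uses to take up immune complexes, had the smallest p of the 35 genes. Its log2 signal, given here and below for arrays A, B and C in that order, was 9.61, 9.56 and 9.83 in Cre minus livers and 9.08, 9.22 and 9.07 in Cre plus livers. The groups did not overlap, and all Cre plus arrays were close together. The log2 difference was -0.54 ± 0.09 (SE, n = 3 per group), a Cre plus signal 0.686 times the Cre minus signal, with a limma p of 0.00108 and an adjusted p of 0.110. Fcgr2b is also made by macrophages and B cells.

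Oit3, a secreted protein with a zona pellucida domain that is made in liver, read 7.14, 7.00 and 7.22 in Cre minus and 6.88, 6.88 and 6.89 in Cre plus. The Cre plus arrays were nearly equal and lay below every Cre minus array, with a log2 difference of -0.24 ± 0.07 (SE, n = 3 per group; limma adjusted p 0.239). Stab2, the endocytic receptor for hyaluronan, read 8.46, 8.30 and 8.31 in Cre minus and 8.08, 8.29 and 7.96 in Cre plus. Its groups did not overlap either, though Cre plus B was just below the lowest Cre minus array, and the log2 difference of -0.24 ± 0.10 (SE, n = 3 per group) had an unadjusted limma p of 0.0563.

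The other sinusoidal genes had groups that overlapped. Clec4g (also LSECtin), a C-type lectin, had a log2 difference of -0.35 ± 0.21 (SE, n = 3 per group), and its highest Cre plus array was B at 10.06 while A and C were at 9.45 and 9.42. Ehd3, an endocytic recycling protein, showed the same order, with Cre plus B at 8.47 against 7.80 and 7.95 in A and C, and a difference of -0.21 ± 0.21. For F8, the gene of coagulation factor VIII, Cre plus B was again highest of its group, at 5.82 against 4.71 and 5.36, and the difference was -0.29 ± 0.35. Mrc1, the mannose receptor, also a macrophage gene, differed by -0.21 ± 0.09 with an unadjusted limma p of 0.0701. Differences of -0.15 ± 0.09 for Dnase1l3, a secreted nuclease, -0.15 ± 0.12 for Gpr182, an atypical chemokine receptor, and -0.06 ± 0.06 for Stab1, a scavenger receptor related to Stab2, were within the spread between arrays. The 95% interval for Stab1 ran from -0.22 to 0.10.

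Lyve1, a hyaluronan receptor of sinusoidal and lymphatic endothelium, was the only one of the 11 with a higher mean in Cre plus. It read 5.69, 6.79 and 5.93 in Cre minus and 8.07, 6.04 and 7.02 in Cre plus. Cre plus A and C were above all Cre minus arrays and Cre plus B was not. The log2 difference was 0.91 ± 0.56 (SE, n = 3 per group) with a 95% interval from -0.46 to 2.28, the widest among the 26 genes kept.

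**Figure D2:**
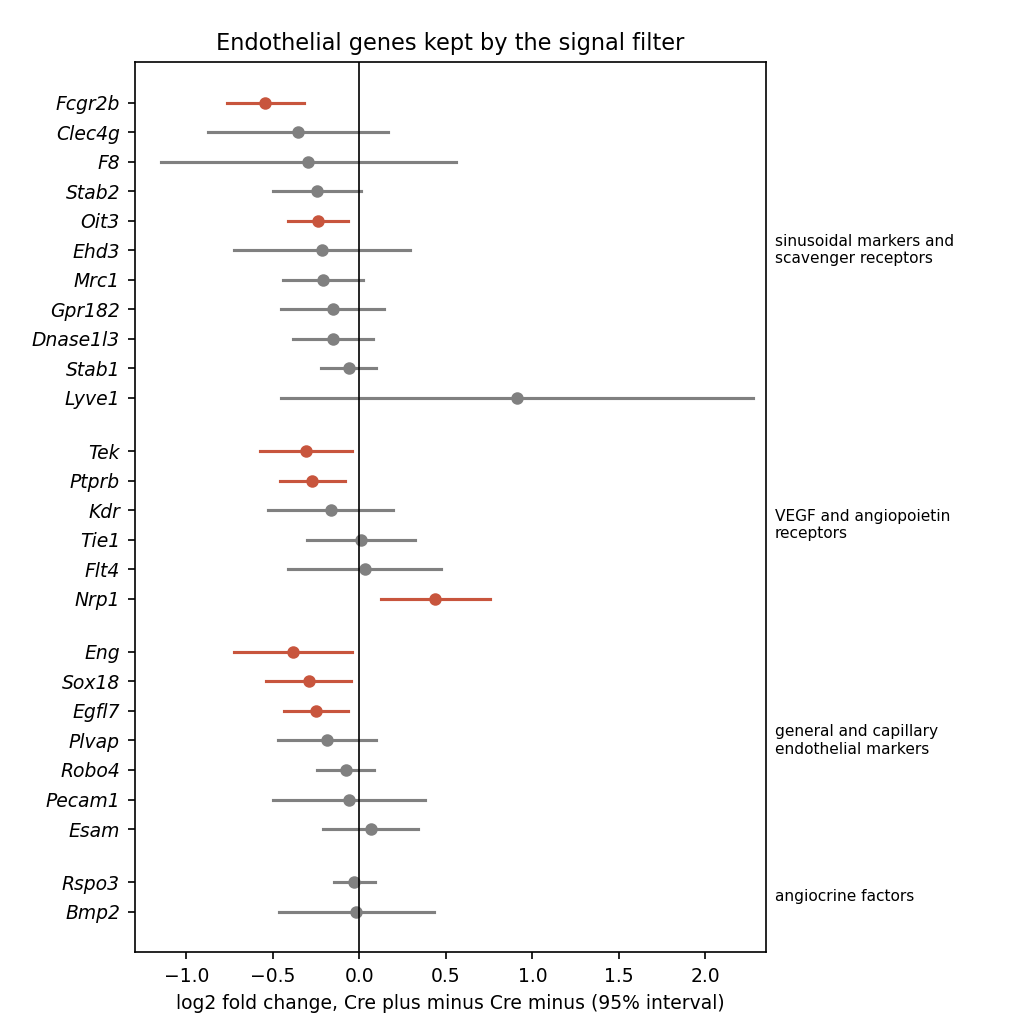
Log2 difference, Cre plus minus Cre minus (horizontal axis), for the 26 endothelial genes kept, with its 95% interval from limma (n = 3 per group), grouped by role and coloured where the unadjusted p was under 0.05. Most points lie left of 0, Fcgr2b has an interval from -0.77 to -0.32, and Lyve1 has the widest interval.

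Of the receptors, 6 of 7 were kept, and they did not share a direction: 3 had lower and 3 higher means, with a median of -0.08. At an unadjusted p under 0.05, 2 were lower (33.3%, against 8.21% of all genes) and 1 higher (16.7%, against 6.62%). Tek (also Tie2), the receptor for angiopoietins, read 6.44, 6.46 and 6.60 in Cre minus and 5.99, 6.36 and 6.21 in Cre plus. All Cre plus arrays were lower, by -0.31 ± 0.11 (SE, n = 3 per group; limma adjusted p 0.285). Ptprb, the endothelial phosphatase known to act on Tek, read 8.97, 8.89 and 8.96 in Cre minus and 8.59, 8.80 and 8.61 in Cre plus. It was lower by -0.27 ± 0.08 (SE, n = 3 per group; limma adjusted p 0.223), again without overlap. Tie1, the partner receptor of Tek, had a difference of 0.01 ± 0.13.

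Nrp1, a coreceptor for VEGF and semaphorins, was the member with higher signal in every Cre plus array. It read 10.47, 10.68 and 10.48 in Cre minus and 10.74, 11.03 and 11.17 in Cre plus. The log2 difference was 0.44 ± 0.13 (SE, n = 3 per group; limma unadjusted p 0.0146, adjusted p 0.238). Nrp1 is also made by stellate cells and other cells of the liver. The VEGF receptors themselves differed by less than the spread between arrays: Kdr (VEGFR2) by -0.17 ± 0.15 and Flt4 (VEGFR3) by 0.03 ± 0.18. Flt1 (VEGFR1) missed the filter, at 3.93 to 4.07 over the 6 arrays.

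Among general and capillary endothelial markers, 7 of 13 were kept, of which 6 had lower means, with a median of -0.19. At an unadjusted p under 0.05, 3 were lower (42.9%, against 8.21% of all genes) and none was higher (6.62% of all genes). Eng, endoglin, a coreceptor for BMP and TGF-beta ligands, read 7.28, 7.13 and 7.37 in Cre minus and 7.05, 6.98 and 6.59 in Cre plus. It was lower by -0.38 ± 0.14 (SE, n = 3 per group; limma adjusted p 0.293), with Cre plus C furthest down. Egfl7, a protein secreted by endothelium, read 7.26, 7.30 and 7.42 in Cre minus and 7.00, 7.18 and 7.05 in Cre plus, a difference of -0.25 ± 0.08 (limma adjusted p 0.241). Sox18, a transcription factor of endothelium, read 5.03, 5.36 and 5.33 in Cre minus and 4.96, 4.98 and 4.90 in Cre plus, a difference of -0.29 ± 0.10 (limma adjusted p 0.278). In each of these 3 genes every Cre plus array lay below every Cre minus array.

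The remaining markers of this role overlapped between groups. Plvap, a component of the diaphragms of endothelial fenestrae and caveolae, differed by -0.19 ± 0.11. Robo4, a guidance receptor, differed by -0.08 ± 0.07, and the junction proteins Pecam1 and Esam by -0.06 ± 0.18 and 0.07 ± 0.11 (SE, n = 3 per group). Cdh5, Emcn, Ramp2, Cd34, Vwf and Clec14a missed the filter, so that Cdh5, the junction cadherin of endothelium in general, and Vwf, von Willebrand factor, a marker of larger vessels, gave too little signal to be compared. Clec14a, a lectin-like receptor of vessels, read 3.96, 3.99 and 4.19 in Cre minus and 3.88, 3.67 and 3.59 in Cre plus. Its groups did not overlap, and the difference of -0.34 ± 0.10 had an unadjusted limma p of 0.0230 and an adjusted p of 0.554 in a fit with no filter. In that fit 7.25% of all genes had an unadjusted p under 0.05 in either direction, 4.03% of all genes a lower value with such a p, and 12.2% had groups that did not overlap. Emcn, a sialomucin of capillaries and veins, read 3.70, 3.48 and 3.48 in Cre minus and 3.45, 3.47 and 3.47 in Cre plus. Its groups did not overlap either, but all 6 values were below the filter and the difference was -0.09 ± 0.07 (limma unadjusted p 0.226).

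Sinusoidal and general markers were set side by side by averaging, in each array, the deviation of every kept gene from its Cre minus mean. For sinusoidal genes the Cre plus means were -0.15, -0.06 and -0.22 in A, B and C, and for general markers -0.14, -0.09 and -0.28. The mean differences of the 2 roles, -0.14 and -0.17, were 0.03 apart, and that gap was -0.06 when all probe sets of a gene were averaged. Without Lyve1 the sinusoidal mean was -0.25 over 10 genes and the gap -0.08, and the medians, -0.21 and -0.19, also had the opposite order to the means, so no order of the roles held. These role means are a description with no test. Receptors had Cre plus means of -0.14, 0.10 and -0.10.

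Angiocrine factors gave little to compare, since 2 of 4 were kept. Bmp2, the ligand by which sinusoidal endothelium sets hepcidin expression in hepatocytes, differed by -0.02 ± 0.18 (SE, n = 3 per group), with Cre plus B highest of all arrays at 6.47. Rspo3, the WNT enhancer of central vein endothelium, read 5.26, 5.27 and 5.29 in Cre minus and 5.24 in each Cre plus array. Its groups did not overlap, but the difference was only -0.03 ± 0.05 and its unadjusted p was over 0.05. The SD of Rspo3 was 0.0162 in Cre minus and 0.0015 in Cre plus, about as narrow as that of Wnt2 (0.0047 and 0.0173). Whether its signal lies above probe background was not tested, and it is counted among the 9 lower genes without overlap. Wnt2, at 3.77 to 3.81, and Angpt2, an antagonist of Tek, missed the filter. Of their hepatocyte targets, 11 of 14 WNT target genes were kept, with 8 lower means. At an unadjusted p under 0.05, 2 were lower (18.2%, against 8.21% of all genes). These were Oat, ornithine aminotransferase, at -0.66 ± 0.17, and Slc1a2, a glutamate transporter, at -0.95 ± 0.26. Of the 3 WNT target genes with higher means, Cyp1a2 had the smallest p, at 0.26 ± 0.11 (limma unadjusted p 0.0559). Glul and Cyp2e1 differed by only -0.12 ± 0.22 and -0.06 ± 0.08, with overlap. Of 8 BMP target genes, 6 were kept, with 4 higher means. Hamp, the gene of hepcidin, was higher by 0.16 ± 0.06 (limma adjusted p 0.296) and in every Cre plus array. It was the 1 of 6 higher at an unadjusted p under 0.05 (16.7%, against 6.62% of all genes). Id3 was also higher in every Cre plus array, at 0.37 ± 0.22. Thus 2 of 6 were higher without overlap, against 9.21% of all genes. Smad7 and Atoh8 had the 2 lower means, at -0.20 ± 0.10 and -0.15 ± 0.12. Whether any of these values follows from an endothelial ligand was not tested.

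Several genes were measured by more than 1 kept probe set, which was so for 7 of the 26. All 4 kept probe sets of Fcgr2b were lower in Cre plus without overlap, by -0.64 to -0.32. The brightest of them is of a design that can bind related transcripts, and without such probe sets the value for Fcgr2b was -0.64. All 4 kept probe sets of Nrp1 were higher, by 0.16 to 0.50, and all 4 of Egfl7 were lower, by -0.26 to -0.03. The brightest probe set of Egfl7 is of a different design that can also bind other transcripts, and the same alternative left it out. Without such probe sets Egfl7 differed by -0.26 with an unadjusted limma p of 0.147, and with its probe sets averaged by -0.14 with a p of 0.106, so its p under 0.05 rests on that probe set. The second probe set of Ptprb differed by only -0.04, with overlap. Eng was the 1 gene whose probe sets disagreed in sign, at -0.38 on the brighter and 0.27 on the dimmer, so its lower value rests on 1 probe set. Both probe sets of Ehd3 were lower and both of Lyve1 higher.

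**Figure D3:**
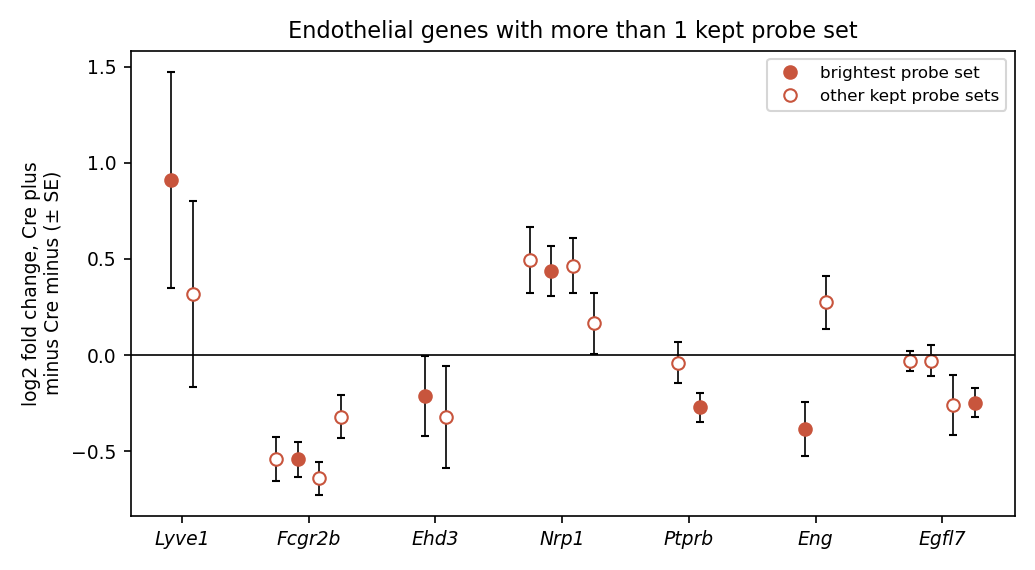
Log2 difference, Cre plus minus Cre minus, with its SE (vertical axis), for every kept probe set of the 7 endothelial genes with more than 1, the brightest filled (n = 3 arrays per group). Points of Fcgr2b and Egfl7 lie below 0, those of Nrp1 above 0, and Eng has one on each side.

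The Cre plus arrays were not alike for endothelial genes. Cre plus A and C each lay below all Cre minus arrays in 19 of the 26 genes, and Cre plus B in 11, while over all genes tested these shares were 34.8%, 38.5% and 29.4%. The median deviation from the Cre minus mean was -0.23 in A, -0.26 in C and -0.04 in B. Cre plus B lay within the range of the Cre minus arrays in 12 of the 26, A in 4 and C in 5. Over the 26 genes the lowest array was Cre plus A in 12 and Cre plus C in 10, and the highest was Cre minus C in 11 and Cre minus A in 7. The standard deviation was larger among Cre plus than Cre minus arrays in 18 of 26 genes (69.2%, against 63.1% of all genes tested).

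Without Cre plus B, 23 of the 26 genes had lower means, their median was -0.24, and 13 had an unadjusted limma p under 0.05, against 19.1% of all genes in either direction. Of these, 11 were lower (10% of all genes). Cre plus B had the smallest median deviation of the Cre plus arrays in these genes (-0.04). Larger differences without it therefore follow from leaving it out and are no support for a difference. Stab2, Clec4g, Dnase1l3 and Ehd3 were lower with such a p there and not with all 6 arrays, and Clec4g then stood at -0.56 ± 0.15 (SE). Lyve1, at 1.41, and Nrp1, at 0.41, were the 2 higher ones. The groups did not overlap in 15 lower genes (21.4% of all genes) and 2 higher ones (16.9%). Still 0 of 26 were called, against 0.152% of all genes, and Fcgr2b had an adjusted p of 0.0841. Without Cre minus C the lower genes with such a p numbered 3, against 5.89% of all genes, and without Cre plus A the median was -0.10.

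**Figure D4:**
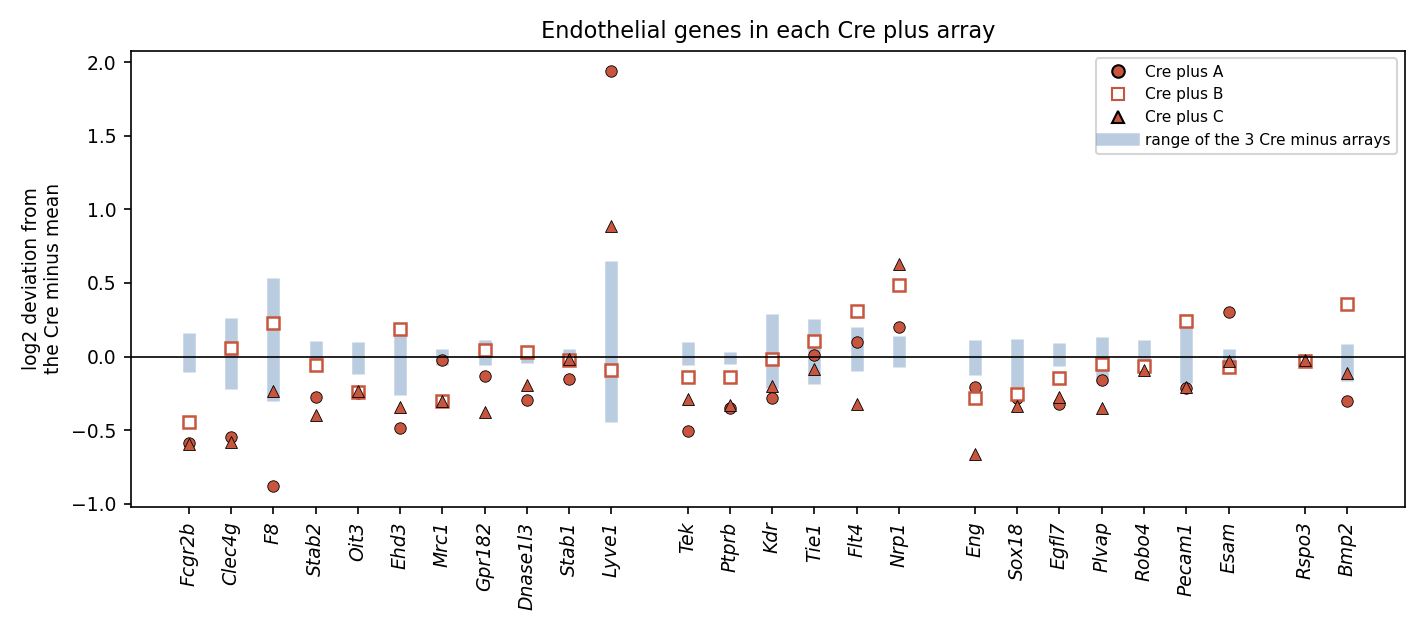
Deviation of each kept endothelial gene from its Cre minus mean, in log2 units (vertical axis), in each Cre plus array (letter by shape), with the range of the 3 Cre minus arrays as a band. Squares of Cre plus B fall within the band in 12 of the 26 genes, and Lyve1 in Cre plus A stands furthest above it.

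Markers of Kupffer cells and other macrophages, which sit in the same sinusoids, also had lower values in Cre plus, with a larger median difference. Of 17 such markers 15 were kept, 14 had lower means, and the median was -0.31. With an unadjusted p under 0.05, 8 were lower (53.3%, against 8.21% of all genes), and Mpeg1 was higher (6.67%, against 6.62%). Tyrobp, an adaptor of myeloid receptors, differed by -0.41 ± 0.07, C1qa, a complement subunit, by -0.39 ± 0.07, and Lyz2, lysozyme, by -0.74 ± 0.14 (SE, n = 3 per group; limma adjusted p 0.105, 0.106 and 0.136). The log2 of the summed signal of these markers was 12.34 to 12.45 in Cre minus and 11.96 to 12.22 in Cre plus, and the markers Timd4 and Folr2 missed the filter. Their mean deviations in Cre plus A, B and C were -0.23, -0.30 and -0.41, against -0.15, -0.01 and -0.20 over the 26 endothelial genes. For the sinusoidal genes the log2 of the summed signal was 11.67 to 11.85 in Cre minus and 11.36 to 11.66 in Cre plus. Without Fcgr2b and Mrc1, which macrophages also make, 19 of 24 endothelial genes had lower means, with a median of -0.16 and 6 lower at an unadjusted p under 0.05. The other 24 genes were not checked for expression in macrophages, and the part of macrophage RNA in the endothelial values was not tested.

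Hepatocyte markers had a median of -0.05 over 8 kept genes, of which 2 were lower with an unadjusted p under 0.05 (25%, against 8.21% of all genes). These were Ahsg, fetuin-A, at -0.27 ± 0.08, without overlap, and Cps1, the first enzyme of the urea cycle, at -0.50 ± 0.18. For stellate cells and fibroblasts the median was -0.02 over 13 genes. Of these, Rgs5 (0.50) and Pdgfra (0.47) were higher at an unadjusted p under 0.05 (15.4%, against 6.62% of all genes). Lymphocyte markers gave 0 of 9 kept, and neutrophil and lymphatic endothelial markers 2 kept genes each, so those cells could hardly be followed. Both kept neutrophil genes stood far above the Cre minus arrays in Cre plus A alone. S100a8 read 10.10 there, 8.19 in B and 8.54 in C, against 8.39 to 8.54 in Cre minus. S100a9 read 9.21 in A, 7.64 in B and 7.86 in C, against 7.82 to 7.90 in Cre minus. What sets Cre plus A apart in these genes was not tested.

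**Figure D5:**
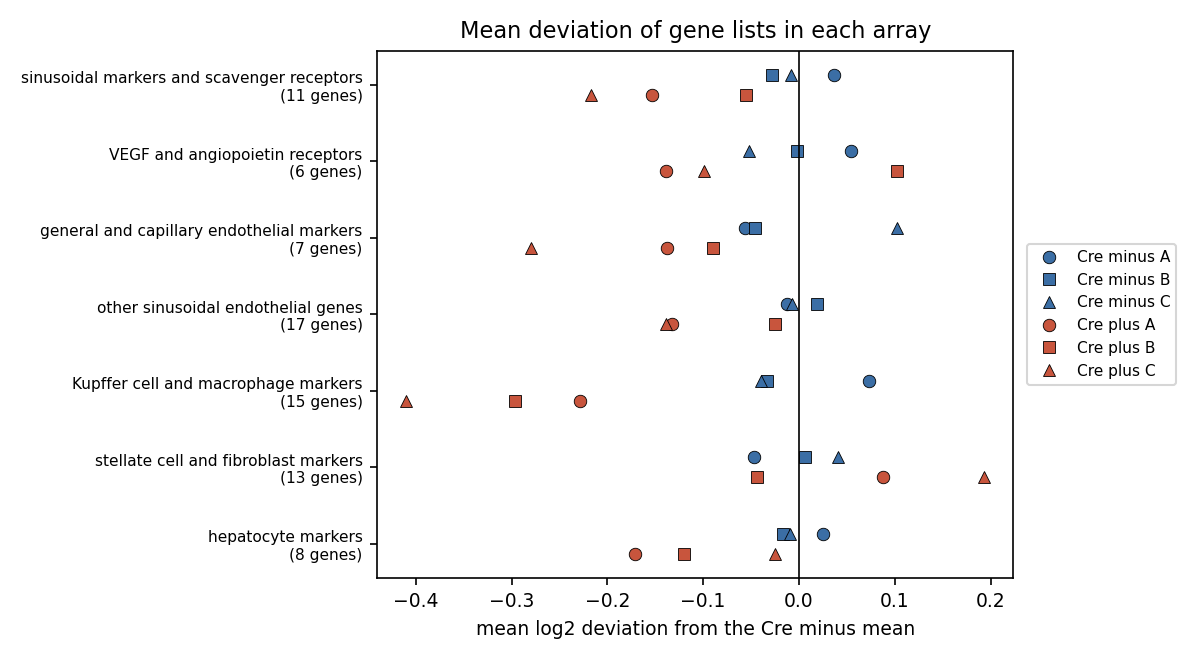
Mean log2 deviation from the Cre minus mean (horizontal axis) of each gene list in each of the 6 arrays (colour for group, shape for letter, number of kept genes beside the name). Kupffer cell and macrophage markers are low in all 3 Cre plus arrays, and the sinusoidal, general and other sinusoidal lists are closest to the Cre minus arrays in Cre plus B.

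Further endothelial genes outside the 35 gave the same direction in part. Of 24 other sinusoidal endothelial genes 17 were kept, 13 had lower means, and the median was -0.07. With an unadjusted p under 0.05, 3 were lower (17.6%, against 8.21% of all genes). These were Fcna, a ficolin also made by macrophages, at -0.38 ± 0.08, Gimap6, a GTPase of the immunity-associated family, at -0.57 ± 0.18, and Plpp3, a lipid phosphatase, at -0.35 ± 0.12. Of 11 VEGF, angiopoietin and apelin ligands 4 were kept, and Vegfa, the main ligand of Kdr, was lower in every Cre plus array at -0.17 ± 0.07 (limma unadjusted p 0.0501). Endothelial transcription factors were split evenly, with 6 lower and 6 higher means among 12 kept and Ets2 at 0.80 ± 0.32. The 3 kept genes of endothelial Notch signalling had lower means, none with an unadjusted p under 0.05.

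Some adhesion and activation genes of endothelium had higher values. Of 14 listed 7 were kept, 4 had higher means and 3 lower ones, and the median was 0.23. With an unadjusted p under 0.05, 2 were higher (28.6%, against 6.62% of all genes). Icam1, the adhesion molecule for leukocyte integrins, which hepatocytes also make, differed by 0.48 ± 0.12 (SE, n = 3 per group; limma adjusted p 0.188), and all Cre plus arrays were above all Cre minus arrays. Cd93, a receptor of endothelium and myeloid cells, differed by 0.36 ± 0.14. Thbd, thrombomodulin, differed by 0.53 ± 0.23, with overlap and a limma unadjusted p of 0.0626. Vcam1, an adhesion molecule and 1 of the 3 with lower means, differed by -0.26 ± 0.12, also with overlap (limma unadjusted p 0.0816). Among 15 other angiocrine factors 7 were kept, 4 with lower and 3 with higher means, and the median was -0.03. Of these, Col4a1, a basement membrane collagen, was higher at 0.59 ± 0.19 (limma adjusted p 0.265). It was the 1 of 7 higher at an unadjusted p under 0.05 (14.3%, against 6.62% of all genes). It was also the 1 of 7 higher without overlap, against 9.21% of all genes. Of 12 zone-specific sinusoidal genes 9 were kept, 6 with lower means and none with an unadjusted p under 0.05.

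Promoter sequence was read for the endothelial genes that RefSeq windows on GRCm38.p6 cover, which was 20 of the 35 (22 windows of the 250 bases before the start site). The letters AGGAAG, a core bound by ETS factors, the family that maintains endothelial expression, were found on either strand in 13 of 22 windows, against 29.5% of all 32851 windows. The GATA core, AGATAA, was in 0 of 22 (9.99% of all windows). The core bound by SOX factors, ACAATG, was in 1 of 22 (10.7% of all windows), that of Clec4g. The STAT site, TTCNNNGAA, was in 0 of 22 (7.02% of all windows). The windows below belong to the members with an unadjusted p under 0.05 and a single window: Fcgr2b at chr1:170976072-170976321 on the minus strand, Tek at chr4:94739039-94739288, Eng at chr2:32646345-32646594 and Nrp1 at chr8:128358823-128359072 on the plus strand. They are written 5′ to 3′ in the gene's direction and end at the base before the start site. Capitals mark AGGAAG or its reverse complement.
Fcgr2b: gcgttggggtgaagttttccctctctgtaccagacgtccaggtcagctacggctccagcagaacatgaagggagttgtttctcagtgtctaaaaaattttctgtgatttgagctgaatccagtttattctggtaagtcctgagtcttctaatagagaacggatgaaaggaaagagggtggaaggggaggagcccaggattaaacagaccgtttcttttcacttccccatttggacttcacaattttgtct
Tek: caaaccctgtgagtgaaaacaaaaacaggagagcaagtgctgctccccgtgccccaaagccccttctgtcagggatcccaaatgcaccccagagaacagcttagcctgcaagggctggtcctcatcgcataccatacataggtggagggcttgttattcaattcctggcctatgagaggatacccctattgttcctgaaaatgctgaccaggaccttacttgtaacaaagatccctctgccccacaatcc
Eng: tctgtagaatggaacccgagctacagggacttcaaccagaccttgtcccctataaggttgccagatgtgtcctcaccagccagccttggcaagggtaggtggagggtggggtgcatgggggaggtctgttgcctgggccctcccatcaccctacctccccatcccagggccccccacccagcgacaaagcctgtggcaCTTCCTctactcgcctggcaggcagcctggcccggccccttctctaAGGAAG
Nrp1: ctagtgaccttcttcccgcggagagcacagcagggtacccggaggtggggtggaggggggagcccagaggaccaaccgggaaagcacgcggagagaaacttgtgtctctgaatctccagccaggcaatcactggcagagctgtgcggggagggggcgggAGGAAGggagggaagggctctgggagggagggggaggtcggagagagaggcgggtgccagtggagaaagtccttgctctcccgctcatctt
The genes Fcgr2b and Tek, both lower in Cre plus, had no match to any of the 4 motifs in this window. Eng had 2 ETS matches, beginning 52 and 6 bases before the start site, and Nrp1, the gene with higher values, had 1, beginning 91 bases before it. In either case a match to these letters is a description of the sequence and does not show binding.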

How the data were processed

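Total RNA from whole liver (2 ug per array) was hybridised to Affymetrix mouse arrays, per the labels' protocols. The deposited values are log2 signals that the authors summarised with GCRMA, per the submitters' processing notes, which give no version. Array medians were 2.98 to 3.02. A probe set was named by the platform annotation when it had 1 symbol (34958 of 45101 probe sets, with 932 assigned to several genes and 9211 to none), and 64 control probe sets were left out. Genes that exceeded a log2 signal of 4 on 3 or more of the 6 arrays were tested, each by its brightest kept probe set, with limma 3.58.1 in R 4.3.3 (lmFit, eBayes, two-sided, all 6 arrays) and Benjamini-Hochberg adjustment over 8554 genes. Errors are limma's standard errors and 95% intervals. The number of arrays limits the precision. GCRMA can flatten signals near background, so differences there can be understated.

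All endothelial genes are accounted for, and those with an unadjusted p under 0.05 or groups that do not overlap are given in full. For other lists, up to 3 kept genes with the smallest p were named, along with defining markers and genes chosen after their values were seen, such as Mpeg1. The members and lists were chosen with earlier results of these data known. The fit was tested on simulated data. Alternatives covered the filter, scaling, probe set choice, priors, array weights, a replicate block and leaving out each array.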

Additional observations from a re-analysis of the deposited data

How the results depend on the processing

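In 15 alternatives none of the endothelial genes tested was called by limma (35 tested with no filter, 18 with a filter at a log2 value over 6 and 26 in each of the others), and the median over those kept stayed below 0, from -0.24 without Cre plus B to -0.10 without Cre plus A. The number lower at an unadjusted limma p under 0.05 was 7 as reported (8.21% of all genes), 3 without Cre minus C (5.89%), 4 with all kept probe sets of a gene averaged (8.32%) and 11 without Cre plus B (10%). Among 382 single-gene values 15 changed sign, all on leaving out an array: Bmp2 ranged from -0.21 to 0.12, Esam from -0.054 to 0.14, Flt4 from -0.11 to 0.21, Pecam1 from -0.21 to 0.086 and Tie1 from -0.083 to 0.14. The sinusoidal minus general mean difference of 0.03 became 0.15 with a filter at a log2 value over 6, -0.064 with probe sets averaged, -0.078 without Lyve1 (chosen after seeing the data), and -0.028 to 0.074 on leaving out an array. Fcgr2b had an adjusted p of 0.0609 (filter over 6) to 0.336 (without Cre minus A). Over all genes, the 2 calls became 0 with no filter, 56 (38 higher, 18 lower) with the filter over 6, and 0 to 13 on leaving out an array (13 without Cre plus B, none without any 1 Cre minus array). Socs3 stood at -2.01 with an adjusted p of 0.0321 under the filter over 6, and at -2.14 to -1.75 on leaving out an array. Deviations of same-letter arrays correlated at -0.15 (A), -0.10 (B) and 0.02 (C), against -0.09 to 0.19 between different letters. Deviations within a group sum to 0, so these values cannot decide whether the letters pair the arrays. The replicate block gave 0 calls over all genes and 6 lower (7.14% of all genes) and 1 higher endothelial genes at an unadjusted p under 0.05. With 3 arrays per group the 95% intervals had a median half-width of 0.28.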
